A study of Rattus norvegicus with 20 samples.

Results

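The microRNAs (miRNAs) described here are 5 mature strands from 2 genomic clusters that mark the supporting tissue of an organ. They are rno-miR-143-3p and rno-miR-145-5p, best known from smooth muscle, and rno-miR-199a-3p, rno-miR-199a-5p and rno-miR-214-3p, best known from fibroblasts and pericytes. They were chosen by name, and all 5 were found among the 719 rat miRNAs on the array and among the 262 miRNAs that were tested. The tissue was kidney from male Wistar rats, each 80 to 100 g in weight. The treated rats were given aristolochic acid I (AAI), a plant acid that damages the proximal tubule and binds to DNA, at 40 mg/kg by intraperitoneal injection. Kidneys of AAI-treated rats were examined at day 2, day 4 and day 6, with 5 kidneys at each day. The 5 control kidneys came from rats that received the vehicle, equal parts of PEG400 and water, and were examined at day 6 only, so no vehicle kidney matches day 2 or day 4. The labels do not give the number of doses before each collection day. All groups shared strain and sex. The labels give each kidney as a separate sample and do not say whether any came from the same rat.

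As background, miR-143 and miR-145 are processed from a shared primary transcript that serum response factor and myocardin drive in vascular smooth muscle, where both help to keep the contractile state. miR-199a and miR-214 come from a transcript on the strand opposite to the dynamin-3 gene, which Twist1 activates in mesenchymal cells. In the kidney these strands are associated with vessel walls, mesangial cells and interstitial fibroblasts. In mouse models of scarring of the kidney, miR-214 and miR-21 have been reported to promote fibrosis, and the miR-29 family has been reported to limit it.

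The mature sequences are shown because the seed, written in capitals (bases 2 to 8), decides which messenger RNAs a miRNA pairs with. They are also shown because the array probes paired from the 3′ end of each strand and left at least part of the seed unread. All 5 were matched by name in RefSeq (build GRCr8) and are written 5′ to 3′.
rno-miR-143-3p: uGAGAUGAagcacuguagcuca
rno-miR-145-5p: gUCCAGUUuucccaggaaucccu
rno-miR-199a-3p: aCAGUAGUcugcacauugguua
rno-miR-199a-5p: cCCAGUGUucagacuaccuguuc
rno-miR-214-3p: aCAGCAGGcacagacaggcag

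The 5 strands carry 5 different seeds, and none of the 693 mature rat miRNAs in the table shares a seed with any of them. rno-miR-143-3p lies at chr18:57371373-57371394 and rno-miR-145-5p at chr18:57370033-57370055, both on the minus strand. Their hairpins are separated by 1278 bases and lie inside the span of the long noncoding RNA gene Carmn. rno-miR-199a-5p lies at chr13:77116255-77116277 and rno-miR-199a-3p at chr13:77116294-77116315, the 2 arms of the hairpin Mir199a2. rno-miR-214-3p lies at chr13:77121713-77121733, and its hairpin starts 5310 bases after the end of Mir199a2. All 3 are on the plus strand, and both hairpins lie inside the span of Dnm3, which encodes dynamin-3. Exons and introns of the host genes were not used here.

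Each miRNA was read by 2 probes with 10 spots each, and every probe paired with the 3′ end of the mature strand and left at least part of the seed unread. The probes of rno-miR-145-5p were the shortest of the 10, with 13 and 14 bases that pair with bases 11 to 23 and 10 to 23. Those of rno-miR-199a-3p were the longest, with 19 and 20 bases. All 5 miRNAs were detected on all 20 arrays, and all 100 spots were well above background on every array, with no spot saturated (0 on all arrays). A level below is the log2 of the summed probe signal divided by the array's 75th percentile over the 231 miRNAs detected on every array. A level of 1 is thus 2 times that percentile. Signal per molecule differs between probes, so levels are compared between groups for 1 miRNA and never between miRNAs.

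The arrays detected 250 to 328 miRNAs each, and the 75th percentile signal ranged from 309 to 592 intensity units. They lay on 3 slides that divide the groups unevenly. On slide 3 were 4 of the 5 vehicle arrays. The fifth vehicle array shared slide 2 with the whole AAI day 2 group and with 2 arrays from AAI day 4. The AAI day 6 group was on slide 1 with the 3 remaining arrays from AAI day 4. No slide thus carried both vehicle and AAI day 6, or both AAI day 2 and AAI day 6. With slide as a fixed block in the fit, differences from vehicle rest on vehicle array 5 alone. AAI day 6 is then set against vehicle and day 2 only through AAI day 4, whose arrays 1 and 2 share slide 2. AAI day 4 array 2 stood apart, with 328 miRNAs detected, while its group's other kidneys gave 269 to 284. Several day 4 results below are also given without it, but not all of them.

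Differences of the stromal miRNAs between groups were small. None was called higher at any day. rno-miR-214-3p alone passed the test, falling to 0.841 times its vehicle level at day 6 (95% interval 0.748 to 0.947) and to 0.804 times its day 2 level (0.714 to 0.904). For the smooth muscle pair, group means were within 0.16 of vehicle on the log2 scale at every day. A fixed block for slide, which leaves vehicle array 5 alone in the comparison, put rno-miR-143-3p at -0.51 at day 6. These are values relative to the other miRNAs of the array. Without scaling, or with scaling to labelling spike-ins, all 5 lay above vehicle at day 2, day 4 and day 6. In whole kidney RNA, fewer cells of a type and less RNA per cell cannot be told apart.

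rno-miR-143-3p is the smooth muscle strand whose targets include regulators of cytoskeleton and of vascular smooth muscle growth. Its level on the vehicle arrays, in array order, was 2.25, 2.31, 2.39, 2.31 and 2.46. At AAI day 2 it was 2.42, 2.27, 2.14, 2.38 and 2.35, and at day 4 it was 2.27, 1.89, 2.43, 2.43 and 2.36. At day 6 the arrays read 2.44, 2.35, 2.04, 2.13 and 2.41. All 4 groups overlapped, and AAI day 4 array 2 was the lowest of the 20, followed by AAI day 6 array 3. The vehicle mean was 2.34 ± 0.08 (SD, n = 5), and the AAI means were 2.31 ± 0.11, 2.28 ± 0.22 and 2.27 ± 0.18 from the earliest to the latest day. Without AAI day 4 array 2 the day 4 mean was 2.37 ± 0.07 (n = 4).

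rno-miR-145-5p, which represses factors of the immature smooth muscle state such as KLF4, was similarly flat at first. Vehicle arrays read -0.49, -0.58, -0.54, -0.46 and -0.42. Day 2 arrays read -0.50, -0.49, -0.71, -0.48 and -0.57, and day 4 arrays -0.43, -0.75, -0.53, -0.48 and -0.58. At day 6 the levels were -0.50, -0.52, -0.89, -0.73 and -0.63. The day 6 group had the lowest mean, -0.66 ± 0.16 against -0.50 ± 0.07 in vehicle, but 2 of its 5 arrays lay within the vehicle range. The arrays low for rno-miR-145-5p were those low for rno-miR-143-3p: AAI day 2 array 3, AAI day 4 array 2, and AAI day 6 arrays 3 and 4. Their 75th percentile signals, the divisors of the level, were 592, 559, 528 and 528, against 312 to 452 in vehicle. AAI day 6 array 1, at 535, was not low. Unscaled, the 4 read 2617, 2073, 2163 and 2312 for rno-miR-143-3p, where vehicle arrays read 1480 to 2373. For rno-miR-145-5p they read 361, 332, 284 and 317, where vehicle arrays read 222 to 311.

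rno-miR-199a-3p has mTOR and MET among its reported targets. It read 0.92, 1.11, 1.06, 1.13 and 1.10 on the vehicle arrays. At AAI day 2 it read 0.99, 1.22, 1.23, 0.99 and 1.03. The day 4 values were 0.81, 0.52, 1.22, 0.95 and 1.01, and on day 6 they were 0.85, 1.06, 0.72, 0.64 and 0.98. At day 6, 3 arrays lay below every vehicle array and 2 lay within the vehicle range. The SD between kidneys was 0.26 at day 4, or 0.17 over the 4 arrays without array 2, and 0.08 in vehicle, a difference that was not tested.

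rno-miR-199a-5p, the other arm of the same hairpin, is reported to lower caveolin-1 in lung fibroblasts. The vehicle arrays read -0.76, -0.56, -0.54, -0.52 and -0.54, a tight group apart from array 1. Day 2 arrays read -0.79, -0.37, -0.35, -0.76 and -0.66, and day 4 arrays -0.85, -1.10, -0.50, -0.73 and -0.63. Day 6 arrays read -0.60, -0.59, -0.92, -0.99 and -0.55. Each AAI group had arrays inside the vehicle range, and 2 of the 5 day 6 arrays lay below every vehicle array.

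rno-miR-214-3p is encoded beside miR-199a on the same strand. On the vehicle arrays it read -1.23, -0.80, -1.02, -0.86 and -0.94. At AAI day 2 it read -1.03, -0.73, -0.80, -1.05 and -0.91. At day 4 the levels were -1.21, -1.08, -1.04, -1.16 and -1.19, and at day 6 they were -1.20, -1.21, -1.15, -1.24 and -1.30. All 5 day 6 arrays lay below all 5 day 2 arrays, and below 4 of the 5 vehicle arrays. Vehicle array 1, at -1.23, lay inside the day 6 range. The day 4 and day 6 kidneys were close to each other (SD 0.07 and 0.06), against SDs of 0.17 in vehicle and 0.14 at day 2.

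**Figure D1:**
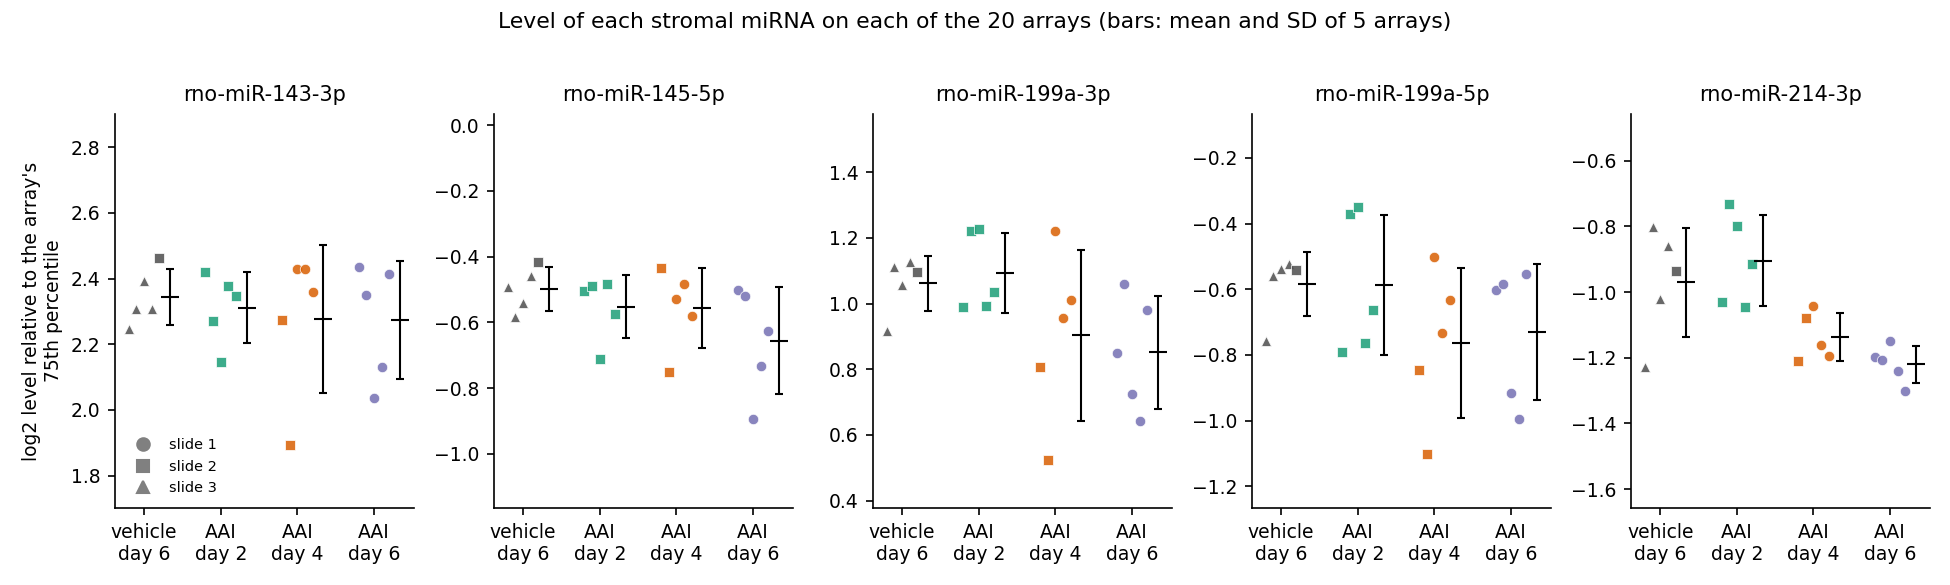
Log2 level of each of the 5 miRNAs (vertical axis, relative to the array's 75th percentile; each panel spans 1.2 units around its own centre) on the 20 arrays, by group (horizontal axis). Each point is 1 kidney, its shape gives the slide, and bars give the mean and SD of 5 arrays; the day 6 points of rno-miR-214-3p all lie below its day 2 points, while the groups of the other 4 miRNAs overlap.

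At day 2 against vehicle, none of the 5 miRNAs passed the test. Called here means an adjusted p under 0.05 in limma's moderated two-sided test with Benjamini-Hochberg adjustment over the 262 tested miRNAs, and 1.15% of these were called in this comparison. The differences of the 5 ranged from -0.05 to 0.07 on the log2 scale, with standard errors of 0.08 to 0.12, and 0 of 5 had an unadjusted p under 0.05. The largest was that of rno-miR-214-3p, 0.07 ± 0.08 (SE), with a fold of 1.05 (95% interval 0.930 to 1.18). The interval of rno-miR-143-3p ran from 0.841 to 1.14 times the vehicle level, and that of rno-miR-199a-5p from 0.835 to 1.19. Under this scaling, changes larger than these bounds are outside the 95% intervals, and smaller ones were not resolved with 5 arrays a group. Unscaled, all 5 differences were positive, from 0.24 (rno-miR-145-5p) to 0.36 (rno-miR-214-3p). With spike-ins they ran from 0.21 to 0.33, and none was called under either.

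At day 4 against vehicle all 5 differences were negative, and 0 of 5 were called against 3.82% of all tested miRNAs, with 0 of 5 at an unadjusted p under 0.05. The 3 miRNAs of the cluster on chromosome 13 differed by -0.16 ± 0.11 (rno-miR-199a-3p), -0.18 ± 0.12 (rno-miR-199a-5p) and -0.17 ± 0.08 (rno-miR-214-3p). The smooth muscle pair differed by -0.07 ± 0.10 and -0.06 ± 0.08, close to the median of all tested miRNAs, -0.07. Without AAI day 4 array 2 the differences of rno-miR-199a-3p and rno-miR-199a-5p were smaller, -0.06 and -0.09, while that of rno-miR-214-3p was -0.18. Those of rno-miR-143-3p and rno-miR-145-5p were 0.03 and -0.01 without it. With slide as a fixed block rno-miR-143-3p was at -0.38 ± 0.17, rno-miR-145-5p at -0.18 ± 0.16, rno-miR-199a-3p at -0.43 ± 0.18 and rno-miR-199a-5p at -0.43 ± 0.22, none of them called. Unscaled, or scaled to spike-ins, all 5 differences had the opposite sign, from 0.08 to 0.30. Within slide 2, which held 1 vehicle array and 2 AAI day 4 arrays, the difference of rno-miR-214-3p was -0.21.

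At day 6 against vehicle, the comparison at matched collection day, 1 of 5 was called, where 26.3% of all tested miRNAs were called. Groups overlapped for all 5, while 23.3% of tested miRNAs had groups that did not overlap. The share of the 5 that was called was thus no larger than that of the array as a whole. rno-miR-214-3p fell by 0.25 ± 0.08 (adjusted p 0.0283, limma), lower than the vehicle mean on 5 of 5 arrays, while unscaled and spike-in scaled values put it 0.12 and 0.04 above vehicle. The other differences were -0.07 ± 0.10 for rno-miR-143-3p (fold interval 0.820 to 1.11), -0.16 ± 0.08 for rno-miR-145-5p (0.797 to 1.01), -0.21 ± 0.11 for rno-miR-199a-3p (0.736 to 1.02) and -0.15 ± 0.12 for rno-miR-199a-5p (0.756 to 1.08). Their adjusted p-values ran from 0.148 to 0.630. The median of all tested miRNAs was -0.11 and that of the 5 was -0.16.

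The call of rno-miR-214-3p at day 6 rests on single arrays. Without vehicle array 2 its adjusted p was 0.0823, without vehicle array 4 it was 0.0736, and without vehicle array 5 it was 0.0646. Without AAI day 6 array 4 or 5 it was 0.0544 or 0.0622. The adjusted p over the 40 alternative settings ranged from 0.00755 to 0.925, and 23 of them kept the call. Slide as a random block gave -0.26 ± 0.12 (adjusted p 0.118, limma). With slide as a fixed block, the differences rest on vehicle array 5 alone, so only their size is given. That block put rno-miR-214-3p at -0.29 and rno-miR-199a-3p at -0.64. The latter was at -0.50 when AAI day 4 array 2 was also left out. The same block put rno-miR-143-3p at -0.51, rno-miR-145-5p at -0.30 and rno-miR-199a-5p at -0.54. Without AAI day 4 array 2 as well these 3 were at -0.32, -0.14 and -0.41.

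The 3 AAI groups share no array with each other, and each was set against the same 5 vehicle arrays. Between the AAI days themselves, day 4 against day 2 gave no call among the 5, nor among all tested miRNAs (0% in limma, with 18 of 262 at an unadjusted p under 0.05). A fixed block for slide changed this to 34 of 262 called, with rno-miR-199a-3p among them (-0.43 ± 0.12, adjusted p 0.0387), and to 0 again when AAI day 4 array 2 was also left out. All 5 differences were negative without the block, and without that array those of rno-miR-143-3p and rno-miR-145-5p were 0.06 and 0.04. Those of rno-miR-199a-3p and rno-miR-199a-5p were -0.19 and -0.18 with that array, and -0.09 and -0.09 without it. rno-miR-214-3p was the 1 of 5 with an unadjusted p under 0.05, at -0.23 ± 0.08 (adjusted p 0.685), and within slide 2 its difference was -0.24. Its day 4 range, -1.21 to -1.04, touched the day 2 range, -1.05 to -0.73.

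At day 6 against day 2, rno-miR-214-3p fell by 0.32 ± 0.08 (adjusted p 0.0248, limma), lower on 5 of 5 arrays than on any day 2 array. It was the 1 of 5 called, where 11.5% of tested miRNAs were called, and the 1 of 5 without overlap, where 9.92% of tested miRNAs had none. The sign was the same under all 40 alternatives, from -0.42 to -0.18, and 27 of them kept the call. Normexp background correction, the software's total signal, the deposited table and 4 of the 5 other scalings ended the call, with adjusted p-values of 0.124 for quantile, 0.203 for median, 0.513 for spike-in and 0.785 for no scaling. It lost the call without AAI day 2 array 2 (adjusted p 0.0555) or 5 (0.0509) or AAI day 6 array 5 (0.0588), and when slide entered the fit as a fixed block (-0.33 ± 0.15, adjusted p 0.0912) or random block (-0.32 ± 0.11, adjusted p 0.0745). rno-miR-199a-3p differed by -0.24 ± 0.11 (adjusted p 0.179). Under the fixed block for slide it differed by -0.64 ± 0.16 (adjusted p 0.0101), and by -0.50 ± 0.19 (adjusted p 0.132) without AAI day 4 array 2 as well. rno-miR-199a-5p, rno-miR-145-5p and rno-miR-143-3p differed by -0.14 ± 0.12, -0.10 ± 0.08 and -0.04 ± 0.10, and under that block by -0.49 ± 0.20, -0.16 ± 0.14 and -0.36 ± 0.16, with no call.

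From day 4 to day 6 none of the 5 was called, where 0.763% of tested miRNAs were, and 0 of 5 had an unadjusted p under 0.05. The difference of rno-miR-214-3p was -0.08 ± 0.08, and -0.09 within slide 1, which held 3 AAI day 4 and 5 AAI day 6 arrays. An F test over the 4 groups passed for rno-miR-214-3p alone of the 5 (adjusted p 0.0275, limma), where it passed for 19.1% of tested miRNAs. The order of its group means was day 2 (-0.90), vehicle (-0.97), day 4 (-1.14) and day 6 (-1.22). None of the 3 neighbouring pairs in that order was called: day 2 with vehicle, vehicle with day 4, and day 4 with day 6.

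**Figure D2:**
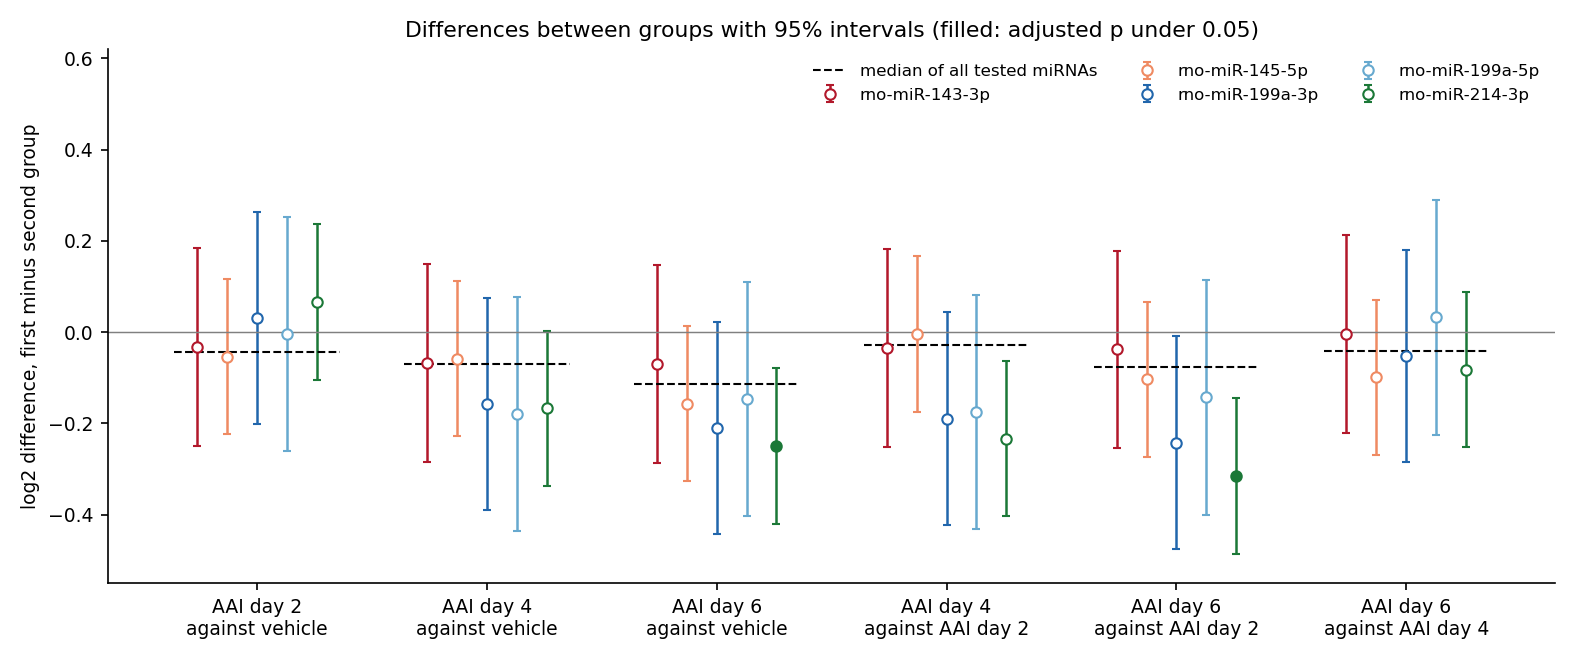
Log2 difference of each of the 5 miRNAs (vertical axis, first minus second group) in the 6 comparisons (horizontal axis), with 95% intervals. Filled points are called, dashed lines give the median of all 262 tested miRNAs, and only rno-miR-214-3p at day 6, against vehicle (-0.25) and against day 2 (-0.32), is filled; its difference from vehicle turns positive without scaling (0.12) or with spike-in scaling (0.04).

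Both probes of each miRNA moved alike. For rno-miR-214-3p the day 6 difference from vehicle was -0.24 on one probe and -0.27 on the other, and from day 2 it was -0.32 and -0.31. For rno-miR-143-3p the probes gave -0.08 and -0.05 at day 6 against vehicle. Over the 20 arrays the levels of the 2 probes of a miRNA correlated at 0.968 to 0.987 (Pearson's r, as a description, since the probes share the RNA and the array). Spread within groups was low for the 5, with pooled SDs from 0.12 (rno-miR-145-5p and rno-miR-214-3p) to 0.19 (rno-miR-199a-5p), against a median of 0.21 over all tested miRNAs.

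The scaling of arrays sets the sign of the differences from vehicle. At day 6 the median of all tested miRNAs was -0.11 with the 75th percentile, 0.25 without scaling and 0.17 with spike-in scaling. Relative to that median, rno-miR-214-3p was lower by the same amount, -0.13, in each of these, because 1 factor per array leaves differences between miRNAs as they are. rno-miR-199a-3p was at -0.10, rno-miR-145-5p at -0.04 and rno-miR-199a-5p at -0.03 relative to it, and rno-miR-143-3p was at 0.04. Quantile normalization, which changes values by rank, left rno-miR-214-3p at -0.04 relative to the median. Against day 2 the sign of rno-miR-214-3p did not depend on the scaling, although its call did. The median of all tested miRNAs stayed between -0.18 and -0.0010 over the 6 ways of scaling. Relative to it rno-miR-214-3p was at -0.24 under each single factor and at -0.12 under quantile normalization.

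**Figure D3:**
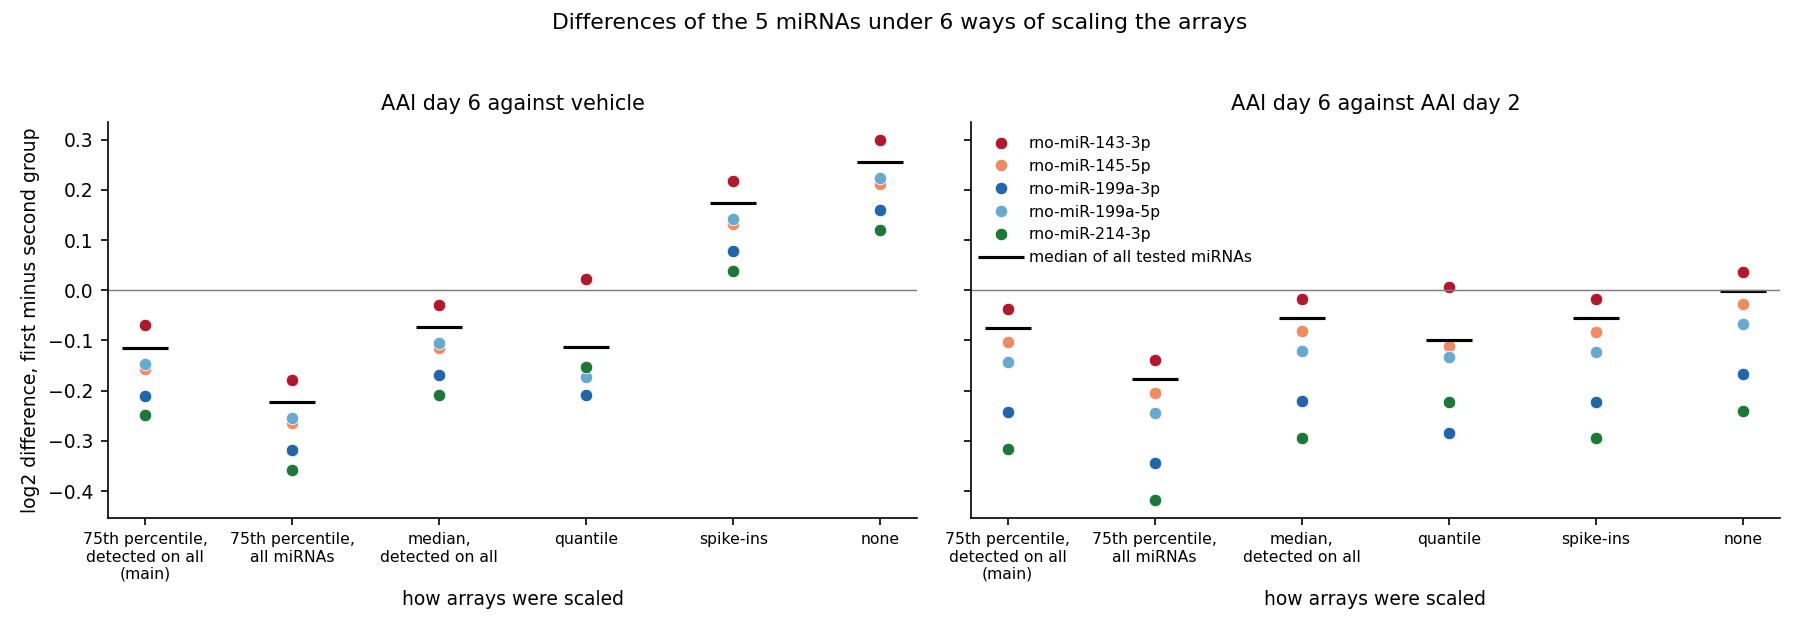
Log2 difference of the 5 miRNAs (vertical axis) under 6 ways of scaling the arrays (horizontal axis), for AAI day 6 against vehicle (left) and against AAI day 2 (right), with black bars for the median of all tested miRNAs. On the left all 5 turn positive with spike-ins or no scaling (rno-miR-214-3p at 0.04 and 0.12), and on the right rno-miR-214-3p stays between -0.42 and -0.22 under all 6.

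The 2 clusters were set against each other within each array, where scaling by 1 factor cancels. The measure was the mean log2 level of rno-miR-143-3p and rno-miR-145-5p minus that of rno-miR-199a-3p, rno-miR-199a-5p and rno-miR-214-3p. Its absolute size reflects the probes, so only its change between groups is read. On the vehicle arrays it was 1.23, 0.95, 1.09, 1.01 and 1.15, and at AAI day 2 it was 1.23, 0.85, 0.69, 1.22 and 1.07. At day 4 it was 1.34, 1.12, 1.06, 1.29 and 1.16, and at day 6 it was 1.28, 1.16, 1.02, 1.23 and 1.19. All groups overlapped.

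The mean of this difference was 1.09 ± 0.11 (SD, n = 5) in vehicle, and 1.01 ± 0.24, 1.19 ± 0.12 and 1.18 ± 0.10 in AAI kidneys of day 2, day 4 and day 6. The shifts from vehicle, -0.07, 0.11 and 0.09, were no larger than the vehicle SD. Single arrays moved them by over 1.5 times. With each array left out in turn the day 2 shift ran from -0.13 to 0.01, and turned positive without AAI day 2 array 3. The day 4 shift ran from 0.07 to 0.14, lowest without AAI day 4 array 1. The day 6 shift ran from 0.05 to 0.13, lowest without vehicle array 2. From day 2 to day 6 it moved by 0.16, or by 0.08 without AAI day 2 array 3, with AAI day 2 arrays 2 and 3 the lowest of the 20. On those arrays the mean of rno-miR-199a-3p, rno-miR-199a-5p and rno-miR-214-3p was the highest of all, 0.04 and 0.03. The cluster means themselves moved from vehicle to day 6 by -0.11 for the smooth muscle pair and by -0.20 for the other 3. No test was made of these scores.

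**Figure D4:**
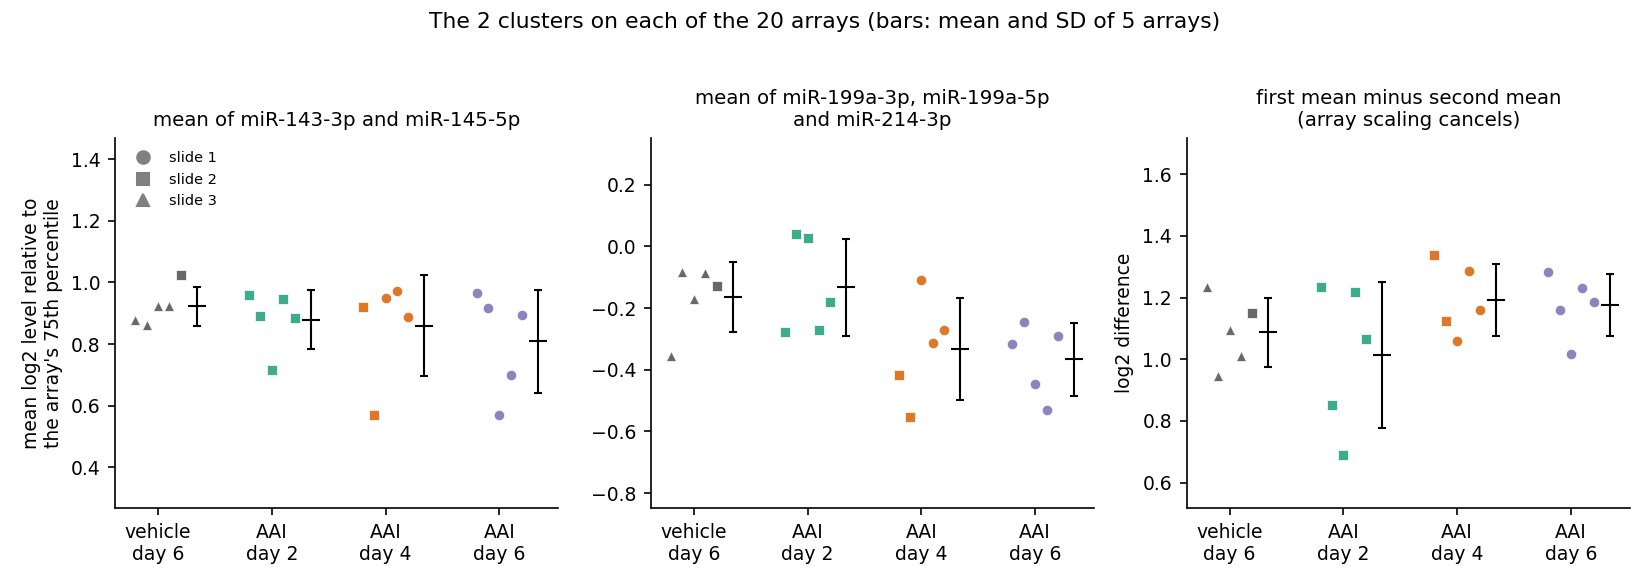
Mean log2 level of each cluster and the difference between the clusters (vertical axes) on the 20 arrays by group (horizontal axes); points are kidneys, shapes give the slide, and bars give mean and SD of 5 arrays. The difference, in which array scaling cancels, overlaps between all groups, with a mean of 1.09 in vehicle against 1.01, 1.19 and 1.18 in the AAI groups by day.

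Kidneys of the same group also differed from each other. After the mean of each group was taken out, the 2 arms of Mir199a2, rno-miR-199a-3p and rno-miR-199a-5p, correlated at 0.94 over the 20 arrays, and rno-miR-143-3p with rno-miR-145-5p at 0.79. The median over all pairs of miRNAs was 0.18 and the 95th percentile 0.81, so that the smooth muscle pair lay just under it. Across the clusters rno-miR-143-3p correlated at 0.62 with rno-miR-199a-3p and at 0.53 with rno-miR-199a-5p. rno-miR-214-3p was below these values with its own neighbours, at 0.35 with rno-miR-199a-3p and 0.42 with rno-miR-199a-5p, and it was at -0.23 with rno-miR-143-3p. These are descriptions over arrays that share the scaling factor and the slide of each array. Without AAI day 4 array 2 (19 arrays), the values were 0.93 for the 2 arms of Mir199a2, 0.73 for the smooth muscle pair, and 0.55 and 0.57 for rno-miR-214-3p with the 2 arms. Those of rno-miR-143-3p with the 2 arms were then 0.35 and 0.31.

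**Figure D5:**
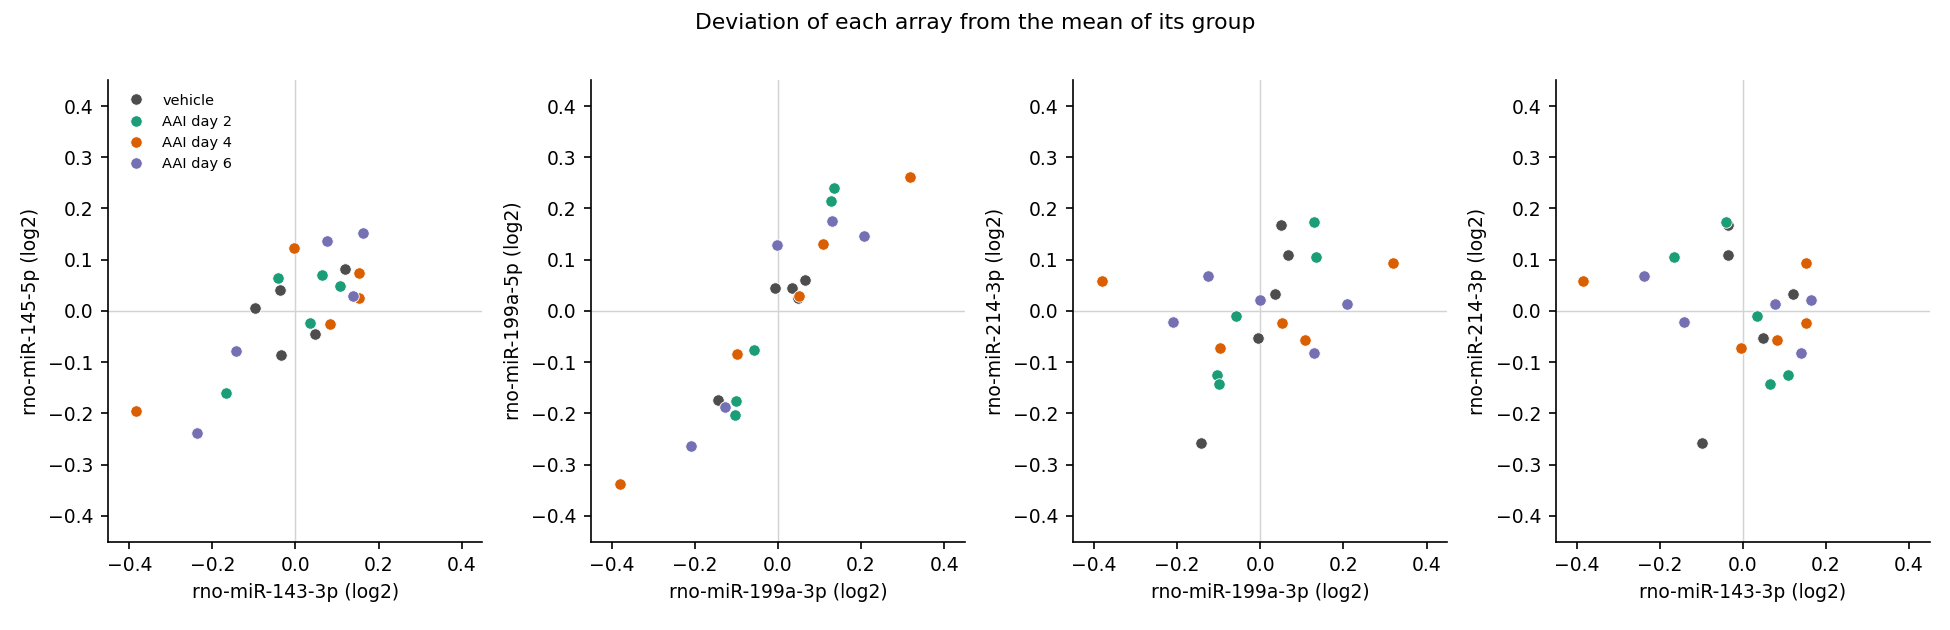
Deviation of each array from its group mean (log2, both axes) for 4 pairs of miRNAs; each point is 1 of 20 kidneys, coloured by group. Points of the 2 arms of miR-199a follow a line (r = 0.94), those of rno-miR-143-3p and rno-miR-145-5p follow one less closely (0.79), and those of rno-miR-214-3p scatter (0.35 with rno-miR-199a-3p, -0.23 with rno-miR-143-3p).

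Among the 231 miRNAs detected on every array, those most like each of the 5 were named by the correlation of levels over 20 arrays. For rno-miR-143-3p they were rno-let-7i-5p (0.94), rno-miR-148b-3p (0.88) and rno-miR-24-3p (0.86). For rno-miR-145-5p they were rno-let-7a-1-3p (0.82), rno-let-7d-3p (0.81) and rno-miR-582-3p (0.80). rno-miR-199a-3p was nearest to its own other arm (0.93), then to rno-miR-872-5p (0.91) and rno-miR-497-5p (0.89), and rno-miR-199a-5p also to rno-miR-27a-3p (0.89). rno-miR-214-3p had no such close match: rno-miR-451-5p (0.71), rno-miR-181a-5p (0.69) and rno-miR-378b (0.68) came nearest. With group means taken out, a different set was nearest to it, led by rno-miR-10b-3p (0.59), rno-miR-222-3p (0.56) and rno-miR-326-3p (0.49). That set changed again without AAI day 4 array 2, to rno-miR-222-3p (0.67), rno-miR-181d-5p (0.64) and rno-miR-221-3p (0.61).

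Passenger strands of the same hairpins were faint. rno-miR-143-5p was detected on 16 of 20 arrays, 4 in each group, and was not tested. rno-miR-145-3p and rno-miR-214-5p were carried by the array and detected on 0 of 20.

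Other miRNAs were set beside these 5, from lists chosen with earlier results of these data known, so their counts are descriptions. The lists name miRNAs tied to kidney fibrosis. Of 6 listed as reported to promote it, 5 were on the array and 4 were tested, and 2 of the 4 rose at day 6 against vehicle, where 7.25% of all tested miRNAs were called higher. rno-miR-21-5p, which is induced in injured tubules, rose 2.16-fold (95% interval 1.51 to 3.09, adjusted p 0.00290, limma). rno-miR-34a-5p, a p53 target, rose 7.57-fold (4.39 to 13.1, adjusted p 2.28e-05), and the median of the 4 was 0.91 on the log2 scale. Of 9 listed as reported to limit fibrosis, 1 rose at day 6 against vehicle, rno-miR-29b-3p (0.44 ± 0.13, adjusted p 0.0130), none fell, and their median, -0.11, was that of all tested miRNAs. Without scaling rno-miR-29b-3p was at 0.81 and rno-miR-29a-3p was called too (0.71, adjusted p 0.0302). With spike-ins rno-miR-29b-3p was called (0.73, adjusted p 0.0170, limma) and rno-miR-29a-3p was not (0.63, adjusted p 0.0519). Against day 2, 2 of the same 9 rose at day 6, rno-miR-29a-3p (0.43 ± 0.13, adjusted p 0.0443) and rno-miR-29b-3p (0.47 ± 0.13, adjusted p 0.0248), where 3.44% of all tested miRNAs were called higher. Both calls were lost without scaling (adjusted p 0.413 and 0.315) and with spike-ins (0.408 and 0.279).

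Markers of other cells moved in the same comparison as rno-miR-214-3p, in which 19.1% of all tested miRNAs were called lower. Their lists too were chosen with earlier results of these data known. At day 6 against vehicle, 3 of 6 miRNAs of the tubule epithelium fell, rno-miR-192-5p (-0.56 ± 0.13), rno-miR-194-5p (-0.63 ± 0.13) and rno-miR-204-5p (-0.42 ± 0.10), each at an adjusted p of 0.00452 or lower in limma. Unscaled, all 3 were still negative (-0.19, -0.26 and -0.05) but not called. On the same list, rno-miR-200a-3p (-0.11 ± 0.12), rno-miR-200b-3p (-0.23 ± 0.10) and rno-miR-200c-3p (0.12 ± 0.17) were not called. Without scaling these were positive (0.26, 0.14 and 0.49) and not called either. The summed signal of those 6, in units of the array's 75th percentile, was 18.3 to 19.4 in vehicle and 13.1 to 16.3 at day 6. Such a sum weighs the brightest miRNAs of its list most. The 1 tested miRNA of red cells, rno-miR-451-5p, fell by 2.73 ± 0.34 (adjusted p 2.17e-05). Over the 2 of 3 red cell miRNAs on the array the summed signal was 0.407 to 1.34 in vehicle, 0.555 to 1.26 at day 2, 0.304 to 0.670 at day 4 and 0.0555 to 0.202 at day 6.

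For endothelium 1 of 2 fell, rno-miR-126a-3p (-0.21 ± 0.07, adjusted p 0.0478), which was at 0.16 without scaling and 0.08 with spike-ins, with sums of 8.94 to 9.15 in vehicle and 6.98 to 8.78 at day 6. For leukocytes 1 of 5 tested fell, rno-miR-342-3p (-0.65 ± 0.12, adjusted p 0.000616), with sums of 2.51 to 2.60 and 1.81 to 2.50. That is close to the share of the array called lower, 19.1%. rno-miR-342-3p was not called without scaling (-0.28, adjusted p 0.236, limma) or with spike-ins (-0.36). The median of the 5 tested was -0.60, against -0.11 for all tested miRNAs. rno-miR-142-3p (-0.69 ± 0.27) and rno-miR-142-5p (-0.60 ± 0.29) were also low but not called, while rno-miR-223-3p was at -0.17 and rno-miR-150-5p at 0.0051. In that order they were at -0.32, -0.23, 0.20 and 0.37 without scaling. For striated muscle 0 of 1 tested changed. Its defining rno-miR-1-3p was detected on 0 of 20 arrays and rno-miR-133a-3p on 3, with sums of 0.0588 to 0.0753 in vehicle and 0.0735 to 0.0800 at day 6. The summed signal of the 5 stromal miRNAs was 8.36 to 9.61 in vehicle and 7.27 to 9.03 at day 6. Its brightest part is rno-miR-143-3p, so it says little of rno-miR-214-3p. The part of other cell types in the difference of rno-miR-214-3p was not tested.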

How the data were processed

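Small RNA in total RNA of 20 rat kidneys was labelled with Cy3 and hybridized to 1 Agilent array each, per the labels' protocols. Per the file headers, the authors read the arrays with Agilent Feature Extraction 10.7.1.1, and probe coordinates refer to rn4. The deposited spot signals are background-subtracted intensity values before scaling. The deposited flags for detection and outlier spots are other values, 0 or 1. Values in the authors' deposited table of the whole series are on a log2 scale, and how they were made is not given in the sources used here. The column medians ran from -3.32 to -3.01, the highest value was 17.4 on every array, and the centring is unknown, so the table served only as an alternative.

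For each miRNA, spots without an outlier flag were averaged per probe and the probe means were added. The sum was divided by the 75th percentile over the 231 miRNAs detected on all arrays, floored at 0.000195 and log2-transformed. The floor is the lowest positive scaled signal of a detected miRNA divided by 2, since a detected miRNA had a negative sum. The test took the 262 miRNAs that were detected throughout at least 1 group. limma 3.58.1 in R 4.3.3 (with data.table, version 1.17.8) fitted the 4 groups with 16 residual degrees of freedom. It was tested on simulated data. Alternatives covered background correction, scaling, probe summary, filters, floor, variance model, slide, replicate number, the deposited table and leaving out each array. The p-values set a difference between groups against the spread between arrays of the same group, whose number limits the precision. In the fit without slide they do not separate differences between slides from those between groups.

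Named miRNAs were the 5, other strands of their hairpins, lists for fibrosis and other cell types, and, for each of the 5, the 3 with the highest correlation. Members and lists were chosen with earlier results of these data known.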

Additional observations from a re-analysis of the deposited data

Results flagged for a closer look

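Among 24 checks of a single array against the other 4 of its group (the 5 miRNAs and the difference between the clusters, in 4 groups), 2 arrays stood apart, where chance gives about 1 in 20 checks. rno-miR-143-3p on AAI day 4 array 2 was at 1.89, while the other 4 arrays of that group were at 2.27 to 2.43. rno-miR-199a-5p on vehicle array 1 was at -0.76, while the other 4 were at -0.56 to -0.52. The difference of rno-miR-214-3p between AAI day 6 and AAI day 2, -0.32, passed the test of the difference itself between the 2 time points.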

How the results depend on the processing

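The 5 miRNAs were compared under 40 or 41 alternative settings each. The number called at day 6 against vehicle was 1 in 24 of 40 settings and 0 under normexp background correction, quantile normalization, median scaling, no scaling, spike-in scaling, the scanner software's total signal, the brightest probe, a fit of 2 groups, slide as a random block, the deposited table, and slide as a fixed block without AAI day 4 array 2. At day 6 against day 2 it was 0 under the same settings except the brightest probe, the fit of 2 groups and the deposited table. In the deposited table the call was rno-miR-199a-3p (-0.29, adjusted p 0.0460), and rno-miR-214-3p was not called (-0.20, adjusted p 0.193). Slide as a fixed block also called rno-miR-199a-3p in place of rno-miR-214-3p at day 6 against day 2. Against vehicle that block leaves vehicle array 5 alone in the comparison, so its call is not read. With each array left out in turn it was 0 to 1 in both. Slide as a fixed block called 1, rno-miR-199a-3p, at day 4 against day 2. The shift of the cluster difference from day 2 to day 6 was 0.33 with the fixed block and no AAI day 4 array 2. The cause was not tested.

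Signs turned mainly with scaling. Without scaling, values at day 2 were 0.26, 0.24 and 0.29 (rno-miR-143-3p, rno-miR-145-5p, rno-miR-199a-5p), and with spike-ins 0.24, 0.21 and 0.26. For the 5 in the order of the sequences, day 4 gave 0.29, 0.30, 0.20, 0.18 and 0.19 unscaled and 0.19, 0.20, 0.10, 0.080 and 0.092 with spike-ins. Day 6 gave 0.30, 0.21, 0.16, 0.22 and 0.12, and 0.22, 0.13, 0.078, 0.14 and 0.039. The software's total signal gave 0.052, 0.031 and 0.081 at day 2, 0.025 and 0.034 for the smooth muscle pair at day 4, and 0.15, 0.060, 0.0063 and 0.070 for the first 4 at day 6. Against day 2 at day 6 it gave 0.094 and 0.029 for the smooth muscle pair, and rno-miR-143-3p was 0.037 unscaled. rno-miR-143-3p also turned at day 2 (0.016 with normexp, 0.017 with quantile, 0.033 in the deposited table), day 4 (0.00091 in that table), day 6 (0.023 with quantile, 0.026 in that table) and day 6 against day 2 (0.0060 with quantile, 0.00056 with the brightest probe). At day 2, rno-miR-199a-3p was -0.0031 within slide 2. Slide as a fixed block, with or without AAI day 4 array 2, is the same comparison with vehicle array 5 alone. Also at day 2, rno-miR-199a-5p was 0.017 with median scaling, 0.0046 with the mean over probes and 0.024 with slide as a random block. rno-miR-214-3p at day 6 against day 4 was 0.0092 with quantile, 0.042 with the total signal and 0.046 in the deposited table. With single arrays left out, signs turned at day 2 for rno-miR-143-3p (-0.059 to 0.0092), rno-miR-199a-3p (-0.0045 to 0.057) and rno-miR-199a-5p (-0.063 to 0.047), and for rno-miR-143-3p at day 4 (-0.11 to 0.029) and day 6 against day 2 (-0.079 to 0.022).

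The labels give groups the same replicate numbers. Arrays of the same number did not deviate together (median r -0.04 over 30 pairs, 0.02 over 120 other pairs), and 4 of 20 arrays correlated best with their own number. With a replicate block rno-miR-214-3p was -0.25 at day 6 against vehicle (adjusted p 0.0230) and -0.32 against day 2 (adjusted p 0.0223), and no call among the 5 changed. Over all tested miRNAs the block called 1, 8, 65, 0, 27 and 3 where the fit without it called 3, 10, 69, 0, 30 and 2, for day 2, 4 and 6 against vehicle, day 4 and 6 against day 2, and day 6 against day 4. Over all settings other than single arrays left out these counts ranged from 0 to 9, 14, 88, 34, 94 and 3.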
